A study of Mus musculus with 4 samples.

Results

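The collagen genes of 4 mouse tumours are described here. They were taken as every gene symbol of the form Col, number, a, number, which gave 44 genes among 24063 symbols, held in 53 transcript rows. Each gene was represented by 1 row, the one with the highest mean count. By the structure of their proteins, 11 were fibrillar, 6 were basement membrane collagens of type IV and 27 were other collagens. The tumours carried the numbers 1, 5, 9 and 10 and formed 1 group, labelled MYC;PMEPA1 overexpression, in C57BL/6 mice with no treatment, with both genes given by hydrodynamic tail vein injection, in which DNA pushed into the circulation at high pressure is taken up chiefly by hepatocytes. MYC activates growth genes, and PMEPA1 is a membrane protein that is induced by TGF-β and restrains its signalling. Passages (8 to 10) are given as for cultured cells, and no label ties a tumour to its own animal, so p-values below measure only the spread between these libraries, which may be technical. With no control group there was no comparison of conditions, and each contrast below describes 1 tumour against the other 3.

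Collagens are secreted proteins in which 3 chains wind into a triple helix built of repeats of glycine and a pair of other residues. Fibrillar collagens such as types I, III and V form the fibres of scar and stroma, type IV forms the sheet of basement membranes, and other types coat fibrils, form beaded filaments or span the cell membrane. In injured liver, activated stellate cells and fibroblasts are the main source of fibrillar collagen, whereas hepatocytes make type XVIII collagen, whose C-terminal fragment is endostatin.

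Collagen genes lie partly in clusters, and their start regions differ, so the sequences of the genes on which the results turn are shown first. Col4a1 and Col4a2 code for the main chains of type IV and stand head to head on chromosome 8. The RefSeq extent (GRCm38) of Col4a1 is 11198423 to 11312889 on the minus strand. That of Col4a2 is 11312805 to 11449287 on the plus strand. Their RefSeq transcription starts overlap by 22 bases at chr8:11312805-11312826, inside the longer overlap of these extents. This stretch is read here on the plus strand and shown because both genes start in it.

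Col4a1 and Col4a2 shared start: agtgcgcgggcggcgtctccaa

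The next 4 windows hold the 250 bases before the RefSeq start (GRCm38.p6), each 5′ to 3′ on its gene's strand. Capitals mark 3 motifs searched on both strands, the TATA box (TATAAA), the CCAAT box (CCAAT) and the GC box (GGGCGG), which do not overlap one another here. Col3a1 and Col5a1 were chosen as collagens that were lowest in tumour 10, and Col5a3 and Col18a1 as ones that were highest there, after their values were seen.

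Col3a1, chr1:45311288-45311537, plus strand: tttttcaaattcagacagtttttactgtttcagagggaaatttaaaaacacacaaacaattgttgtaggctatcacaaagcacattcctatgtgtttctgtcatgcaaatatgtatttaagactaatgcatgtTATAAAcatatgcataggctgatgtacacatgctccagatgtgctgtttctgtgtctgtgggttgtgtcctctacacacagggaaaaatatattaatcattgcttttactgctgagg

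Col5a1, chr2:27886175-27886424, plus strand: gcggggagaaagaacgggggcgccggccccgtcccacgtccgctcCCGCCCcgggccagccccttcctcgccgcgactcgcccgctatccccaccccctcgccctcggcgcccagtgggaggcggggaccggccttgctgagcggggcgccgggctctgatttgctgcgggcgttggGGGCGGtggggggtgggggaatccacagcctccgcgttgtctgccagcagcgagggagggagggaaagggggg

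Col5a3, chr9:20815068-20815317, minus strand: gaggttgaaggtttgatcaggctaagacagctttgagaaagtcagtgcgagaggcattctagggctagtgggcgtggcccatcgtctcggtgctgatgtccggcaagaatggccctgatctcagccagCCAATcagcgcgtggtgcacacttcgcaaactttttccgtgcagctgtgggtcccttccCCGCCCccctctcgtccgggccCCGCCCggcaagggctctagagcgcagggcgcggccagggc

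Col18a1, upstream start, chr10:77166531-77166780, minus strand: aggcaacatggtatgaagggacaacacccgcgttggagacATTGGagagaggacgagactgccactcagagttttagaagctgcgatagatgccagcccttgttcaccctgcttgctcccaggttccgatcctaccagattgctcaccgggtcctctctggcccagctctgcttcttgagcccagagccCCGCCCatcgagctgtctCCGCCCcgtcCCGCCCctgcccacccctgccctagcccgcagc

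The Col3a1 window held 1 TATA box, 117 to 112 bases before the start, and no GC box. The Col5a1 window held a GC box 73 to 68 bases before the start and 1 on the opposite strand 205 to 200 bases before it. The Col5a3 window held a CCAAT box at 122 to 118 bases and GC boxes on the opposite strand at 63 to 58 and 41 to 36 bases. The Col18a1 window of the upstream start held 3 GC boxes within 61 bases of the start and a CCAAT box at 210 to 206 bases, all on the opposite strand. The window of its inner start, at base 77113705, is not shown and held none of the 3 motifs. The Col18a1 levels below come from the transcript row of that inner start. The genes that were high and those that were low in tumour 10 thus both included windows with GC boxes. RefSeq windows were held for 35 of the 44 genes, 38 windows in all. GC boxes were in 22 of these (57.9%), against 32.7% of 32851 windows of all genes. CCAAT boxes were in 13 (34.2%, against 33.8%) and TATA boxes in 5 (13.2%, against 12.4%). A match is a match of letters only.

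Gene totals were between 41547938 and 51939623 counts per library, and 3 counts corresponded to between 0.0524 and 0.0892 CPM (counts scaled to library size by the TMM method). Expressed here means a mean of 1 CPM or more over the tumours, and 20 collagens passed: 8 of 11 fibrillar, 2 of 6 basement membrane and 10 of 27 other collagens. A gene can pass through 1 high tumour, and Col13a1, a transmembrane collagen, did so through tumour 9, without which 19 collagens passed. The collagens together took 0.125%, 0.123%, 0.161% and 0.104% of gene counts in tumours 1, 5, 9 and 10. In this order, which is kept below, their summed level was 1137, 1193, 1467 and 1303 CPM (1275 ± 145, SD, n = 4). On this scale tumour 10, with a TMM factor of 0.802, lay above tumours 1 and 5, whereas its share of gene counts was the lowest. The spread and order of the sums thus depended on the scaling. The makeup of the sum did not stay constant, as the classes below show.

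The fibrillar collagens were led by Col1a1 and Col1a2, the 2 chains of type I, the main protein of fibrous tissue, and by Col3a1, which forms type III. Col3a1 (chromosome 1, 45311538 to 45349706) had 135.2, 101.4, 157.1 and 31.9 CPM (106.4 ± 54.7, SD, n = 4). Col1a1 (chromosome 11, 94936224 to 94953042) had 101.4, 62.8, 115.3 and 26.9 CPM, from 5805, 2691, 6195 and 905 reads. Col1a2 (chromosome 6, 4505618 to 4541543) had 96.9, 76.5, 137.3 and 29.7 CPM. In all 3 genes tumour 9 was highest and tumour 10 lowest, and tumour 10 lay below the range of the other tumours. The highest tumour exceeded the lowest 4.93-fold for Col3a1, 4.29-fold for Col1a1 and 4.62-fold for Col1a2.

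Type V collagen sits inside type I fibrils and limits their width. Its chain genes did not share 1 pattern. Col5a1 (chromosome 2, 27886381 to 28039510) had 21.8, 17.4, 22.1 and 5.71 CPM. Col5a2 (chromosome 1, 45374331 to 45503282), which lies tail to tail with Col3a1 at a distance of 24624 bases, had 15.7, 13.0, 24.0 and 6.42 CPM. Both were lowest in tumour 10. Col5a3 (chromosome 9, 20770050 to 20815117) instead had 8.46, 7.05, 10.3 and 28.7 CPM, so that tumour 10 stood above the range of the others. Read per base, Col5a3 ran at 0.537, 0.559, 0.645 and 6.93 times Col5a1 in the same library (95% exact interval in tumour 10, 5.93 to 8.14). The windows of these 2 genes, shown above, both held GC boxes, and only that of Col5a3 a CCAAT box.

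Col27a1, a fibrillar collagen known from cartilage, had 13.9, 7.33, 20.4 and 22.9 CPM, lowest in tumour 5 and only just higher in tumour 10 than in tumour 9. Scaled by total counts, tumour 10 no longer exceeded the others for this gene. Col11a2, a chain of cartilage type XI, was low in all tumours at 1.92, 1.004, 1.84 and 1.64 CPM. The fibrillar genes not expressed were Col2a1, the collagen of cartilage, with 2, 0, 3 and 4 reads, Col24a1 with at most 7, and Col11a1 with 6, 4, 36 and 0 reads. Col11a1 reads were thus mostly in tumour 9.

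**Figure D1:**
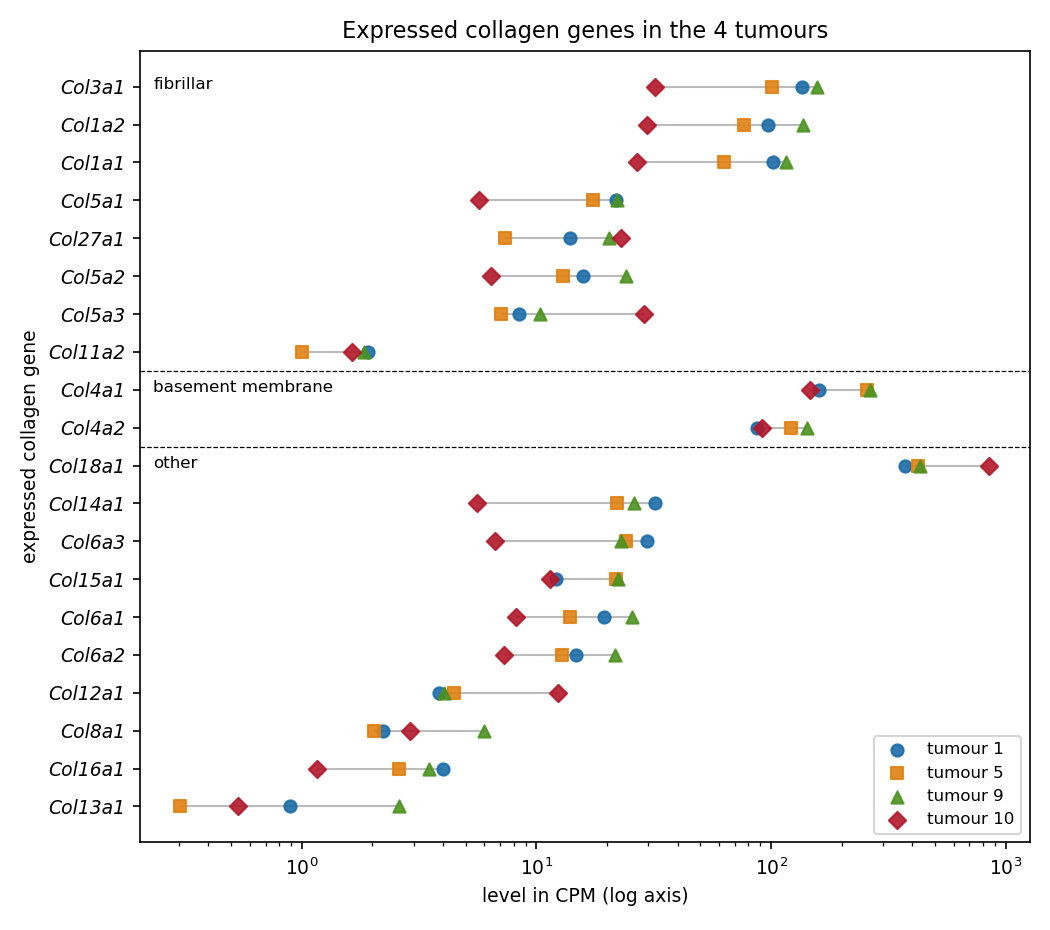
Level of each of the 20 expressed collagen genes in CPM (log axis), with 1 point per tumour, a line from the lowest to the highest, and dashed lines between the classes. Tumour 10 was the lowest of the 4 for Col3a1 (31.9 CPM) and the highest for Col5a3 (28.7 CPM), Col12a1 (12.3 CPM) and Col18a1 (850.9 CPM).

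Of type IV, the collagen of basement membranes, only the head-to-head pair Col4a1 and Col4a2 was expressed. Col4a1 had 160.6, 255.2, 262.8 and 146.4 CPM (206.3 ± 61.2, SD, n = 4), and Col4a2 had 87.2, 121.8, 142.0 and 91.2 CPM (110.6 ± 26.1, SD, n = 4). Both were higher in tumours 5 and 9 than in tumours 1 and 10, and the highest exceeded the lowest 1.79-fold and 1.63-fold. Whether a read in the overlap of their starts came from 1 gene or the other cannot be told, but the overlap is 22 bases of 7464 exonic bases of Col4a1. The other type IV chains form the membranes of kidney, eye and other special sites, and their genes pair up likewise: Col4a4 with Col4a3 on chromosome 1, and Col4a6 with Col4a5 on the X chromosome. Col4a3 had 12, 2, 10 and 10 reads, Col4a4 18, 15, 17 and 17, Col4a6 7, 3, 8 and 2, and Col4a5 55, 31, 93 and 11. Col4a5, with a mean of 0.936 CPM, lay just under the limit for expression, and Col13a1, with 1.08 CPM, just above it.

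Among the other collagens 1 gene took most of the reads. Col18a1 (chromosome 10, 77052178 to 77166530), a multiplexin of the basement membrane zone, had 370.9, 422.0, 429.4 and 850.9 CPM (518.3 ± 223.3, SD, n = 4). It was the collagen with the most reads in every tumour, with 21226, 18073, 23071 and 28618. Tumour 10 stood far above the others, which lay within 370.9 to 429.4 CPM. Its share of all collagen counts was 32.6%, 35.4%, 29.3% and 65.3% (95% Wilson interval in tumour 10, 64.9% to 65.8%). Col15a1, the other multiplexin, did not move with it, at 12.1, 21.8, 22.3 and 11.4 CPM, so that Col18a1 per base was 29.0, 18.3, 18.2 and 70.4 times Col15a1.

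The Col18a1 gene has an upstream start, whose window is shown above, and an inner start at base 77113705. The transcript row of the inner start (5628 bases) had 21226, 18073, 23071 and 28618 reads, and that of the upstream start (5044 bases) 19761, 16454, 21682 and 27097. Most of each transcript is common to both, and reads there were counted on both rows, so the starts cannot be told apart from the totals. The longer row held 1465, 1619, 1389 and 1521 more reads, which is 6.90%, 8.96%, 6.02% and 5.31% of its count for 10.4% of its length. As a share of the count the surplus was smallest in tumour 10, and these libraries differ in depth.

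Type VI collagen forms beaded filaments in the matrix around cells, from 3 chains. Col6a1 had 19.4, 13.8, 25.4 and 8.18 CPM, Col6a2 had 14.7, 12.8, 21.7 and 7.25 CPM, and Col6a3 had 29.5, 24.1, 22.9 and 6.66 CPM. All 3 were lowest in tumour 10. Col6a1 and Col6a2, neighbours in the same direction on chromosome 10 at 85161 bases, kept a ratio per base between 1.01 and 1.24. Col6a3, on chromosome 1, ran at 0.556, 0.638, 0.331 and 0.299 of Col6a1 per base. The longer Col6a3 row carries 1821 bases (16.8% of its length) inside the transcript that the other row lacks, and only 18, 15, 6 and 2 more reads. Almost no reads of these tumours were thus counted on the extra stretch. The ratio to Col6a1 was taken over all 10841 bases of the longer row, so it understates Col6a3 on the bases that were read. The second type VI cluster on chromosome 9 was nearly silent: Col6a4 and Col6a6 had at most 7 reads each, and Col6a5 had 2, 2, 148 and 14 reads, which is 2.75 CPM in tumour 9.

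Collagens that decorate fibrils (the FACIT types) differed in direction. Col14a1 (chromosome 15, 55307644 to 55520803), a fibril-associated collagen of mature stroma, had 32.1, 22.1, 26.0 and 5.59 CPM, a 5.74-fold range with tumour 10 lowest. Col16a1 had 3.98, 2.59, 3.48 and 1.16 CPM and was also lowest there. Col12a1 (chromosome 9, 79598987 to 79721141), found in tendon and other dense tissue, had 3.83, 4.46, 4.02 and 12.3 CPM and was highest in tumour 10. Col8a1, a short-chain collagen of vessel walls, had 2.22, 2.03, 5.96 and 2.88 CPM, and Col13a1 had 0.891, 0.304, 2.61 and 0.535 CPM. Both were highest in tumour 9.

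The 24 collagens that were not expressed included Col7a1, the anchoring fibril collagen of skin, with 41, 15, 49 and 8 reads, and Col20a1, with 33, 12, 73 and 40 reads. They also included Col10a1, the collagen of hypertrophic cartilage, with at most 9 reads, and Col17a1 of hemidesmosomes with at most 10. Col8a2 had 8, 1, 21 and 3 reads. In all, 18 of the 24 had at most 20 reads in every tumour, 5 had at most 3, and 13 had no read in at least 1 tumour. A count of 0 allows a level of up to 3 counts, between 0.0524 and 0.0892 CPM by tumour, which covers counting error only.

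Compared per length of transcript, the order of levels was led by Col18a1 with 92.1 ± 39.7 CPM per kb (SD, n = 4), followed by Col4a1 with 31.2 ± 9.26. Col3a1 with 19.1 ± 9.83, Col4a2 with 17.2 ± 4.06, Col1a2 with 16.5 ± 8.70 and Col1a1 with 16.3 ± 8.49 CPM per kb came next. The SD is the spread between tumours, not between genes within a tumour, and the order of these 4 genes was not tested. All other collagens had means of at most 4.21 CPM per kb, the value of Col6a1. In tumour 10 alone Col18a1 reached 151.2 CPM per kb, while Col1a1, Col1a2 and Col3a1 had 5.73, 5.78 and 5.73.

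**Figure D2:**
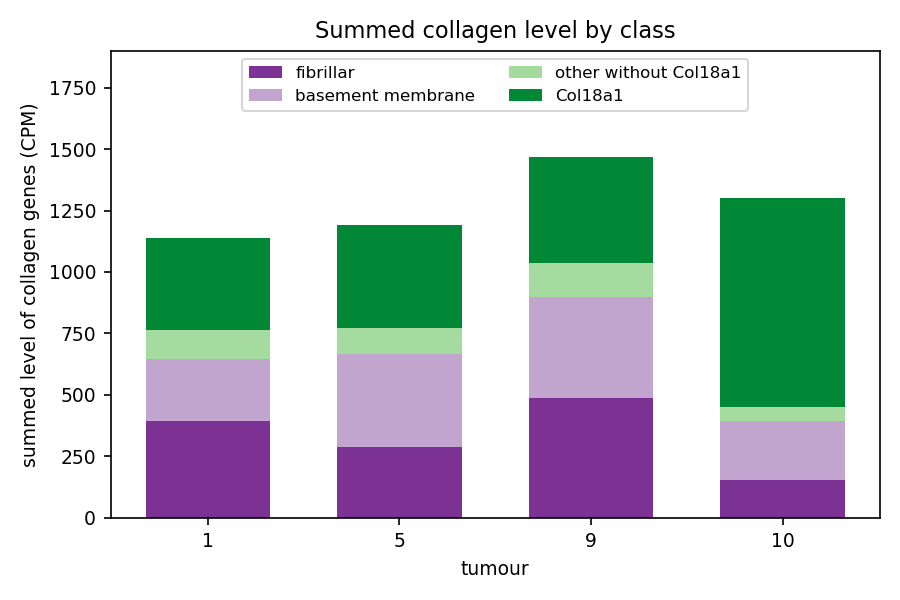
Summed level of the collagen genes in CPM in each tumour, stacked by class, with Col18a1 drawn apart from the rest of the other collagens. The fibrillar sum was 395.5, 286.6, 489.2 and 154.0 CPM in tumours 1, 5, 9 and 10, and Col18a1 filled most of the bar of tumour 10.

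The classes summed to different profiles. The fibrillar sum was 395.5, 286.6, 489.2 and 154.0 CPM, lowest in tumour 10. The basement membrane sum was 249.4, 378.2, 407.2 and 238.8 CPM, highest in tumours 5 and 9. The other collagens summed to 491.8, 527.8, 570.4 and 909.7 CPM, highest in tumour 10 through Col18a1. Without Col18a1, all collagens summed to 765.8, 770.6, 1037 and 451.6 CPM, with tumour 10 lowest. As shares of collagen counts, fibrillar genes took 34.8%, 24.0%, 33.4% and 11.8%, and type IV took 21.9%, 31.7%, 27.8% and 18.3%.

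**Figure D3:**
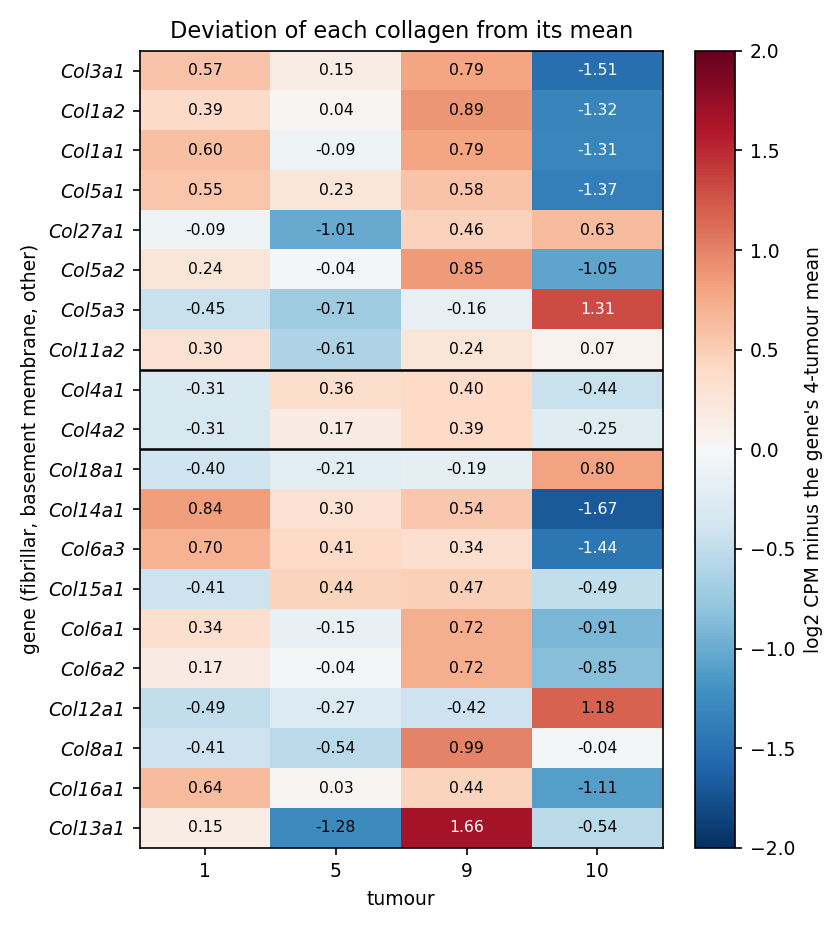
Deviation of each expressed collagen from its own mean over the 4 tumours, in log2 CPM with a prior count of 2, red for higher and blue for lower, with lines between fibrillar, basement membrane and other genes. Col14a1 had the lowest value in tumour 10 (-1.67) and Col5a3 the highest there (1.31).

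The classes were also compared by each gene's deviation from its own mean (log2 CPM). The median over fibrillar genes was 0.34, -0.06, 0.68 and -1.18 in tumours 1, 5, 9 and 10. Over the 2 type IV genes it was -0.31, 0.26, 0.39 and -0.35, and over the other collagens 0.16, -0.09, 0.50 and -0.69. Over all 13129 expressed genes it was -0.01, 0.00, -0.04 and 0.02. The median SD between tumours was 0.91 for fibrillar, 0.39 for type IV and 0.74 for other collagens, against 0.45 over all expressed genes. The fibrillar median hides Col5a3 and Col27a1, whose deviations of 1.31 and 0.63 in tumour 10 went the other way, and the mean over the 8 fibrillar genes was -0.57 there. Scaling by total counts would move the median of all genes by 0.14, 0.04, 0.13 and -0.32, and all values are given relative to TMM.

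Tumour 10 lay below the range of the other 3 for 12 expressed collagens, of which 5 were fibrillar (Col1a1, Col1a2, Col3a1, Col5a1, Col5a2), 1 was Col4a1 and 6 were other collagens (Col6a1, Col6a2, Col6a3, Col14a1, Col15a1, Col16a1). Among all expressed genes 32.4% did so. It lay above the range for 4 (Col5a3, Col12a1, Col18a1, Col27a1), against 35.8% of all expressed genes. Under total-count scaling these counts were 13 and 3. With that scaling tumour 10 was the lowest for 53.3% of all expressed genes and the highest for 20.03%. The count of 13 thus has to be read against a larger share of all genes than under TMM. Under TMM, tumour 9 was the highest of the 4 for 12 collagens, against 21.6% of expressed genes.

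Counting error and the spread between tumours were then set beside these differences. All 20 expressed collagens varied between tumours by more than counting error (Poisson test, adjusted over all genes), but so did 98.7% of all expressed genes, so this says little about collagens. Against the spread between tumours, no collagen passed in any tumour in edgeR's quasi-likelihood test with Benjamini-Hochberg adjustment over all genes and tumours, nor did any other gene (0.0%). The smallest adjusted p of a collagen in that test was 0.23, for Col3a1 in tumour 10. Adjusted for tumour 10 alone, 1.75% of all genes passed and again no collagen, and limma-voom called none. DESeq2's Wald test called 8 collagens in tumour 10, with 10.3% of all genes: Col1a1, Col1a2, Col3a1, Col5a1, Col6a3 and Col14a1 lower, and Col5a3 and Col18a1 higher. The call thus depended on the tool.

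Without adjustment, edgeR gave p under 0.05 in tumour 10 for 7 collagens that were lower (Col1a1, Col1a2, Col3a1, Col5a1, Col5a2, Col6a3, Col14a1), where 8.23% of all genes were. It did so for 3 that were higher (Col5a3, Col12a1, Col18a1), where 13.9% of all genes were. The log2 fold change of tumour 10 against the other 3 was -2.04 ± 0.36 (SE) for Col3a1, -1.79 ± 0.44 for Col1a1 and -2.26 ± 0.41 for Col14a1. It was 1.73 ± 0.38 for Col5a3, 1.58 ± 0.48 for Col12a1 and 1.06 ± 0.23 for Col18a1, with adjusted p of 0.32, 0.50 and 0.31 in edgeR's test. For type IV it was -0.63 ± 0.37 (Col4a1) and -0.36 ± 0.34 (Col4a2), with adjusted p of 0.95 and 0.98 in that test. In tumour 9 the unadjusted test gave no lower collagen (1.9% of all genes), and the only higher one (3.76% of all genes) was Col13a1, which had passed the limit for expression through that tumour, so nothing is read from its test. In tumour 1 it gave none higher (0.427%) and none lower (0.289%), and likewise in tumour 5 (0.617% and 0.305%).

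**Figure D4:**
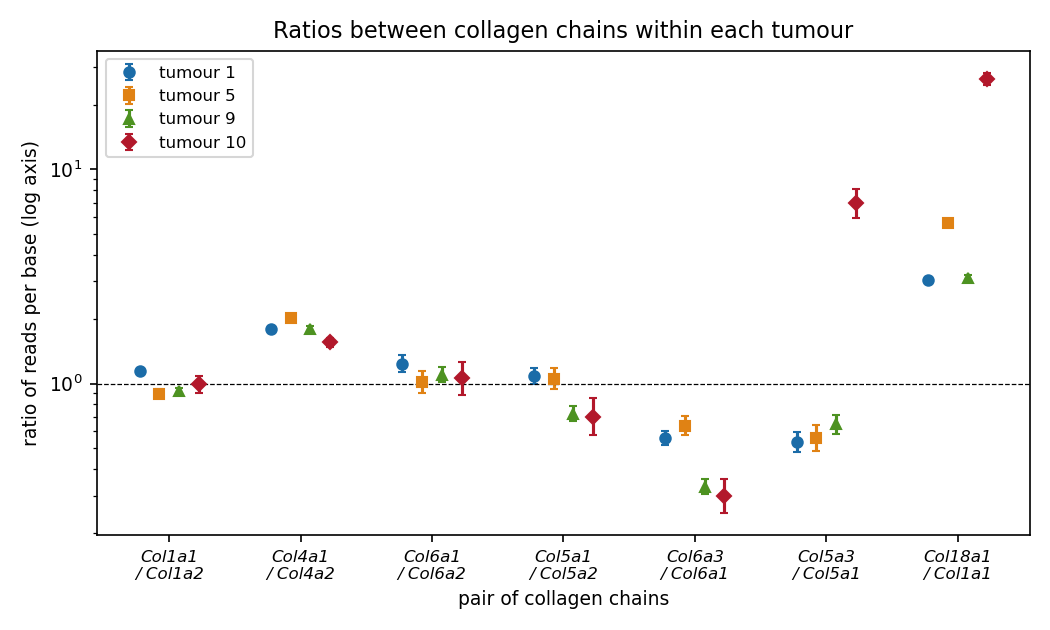
Ratio of reads per base between pairs of collagen chains within each tumour (log axis, dashed line at 1), with exact 95% intervals that cover counting error only. The pairs Col1a1 with Col1a2 and Col4a1 with Col4a2 stayed within a narrow range, whereas Col5a3 with Col5a1 reached 6.93 and Col18a1 with Col1a1 reached 26.4 in tumour 10.

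Chains that join in 1 molecule can be compared within a library, where scaling between libraries has no part. Col1a1 stood to Col1a2 per base as 1.15, 0.90, 0.92 and 0.99, a 1.27-fold range while each gene's level ranged over 4-fold. Type I protein holds more of the chain from Col1a1 than of that from Col1a2, whereas their reads per base were close to equal. Col3a1, which forms type III and is not a partner chain of Col1a1, stood to Col1a1 as 1.13, 1.36, 1.15 and 1.001. Col4a1 stood to its partner Col4a2 as 1.79, 2.04, 1.80 and 1.56, above 1 in every tumour. Col5a1 stood to Col5a2 as 1.09, 1.05, 0.72 and 0.70, so the pair was nearer to equal in tumours 1 and 5. Between classes the range was wider: Col4a1 stood to Col1a1 as 1.12, 2.88, 1.62 and 3.86, and Col18a1 to Col1a1 as 3.05, 5.61, 3.11 and 26.4.

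Genes that act on collagen were followed in 7 lists. Of 79 genes, 64 were expressed and none was called by edgeR after adjustment. Without it 7 were lower and 3 higher in tumour 10, where 8.23% and 13.9% of all genes were, and 1 was lower and 4 higher in tumour 9, where 1.9% and 3.76% were. In tumour 1, 1 was higher (0.427% of all genes), and in tumour 5, 1 was lower (0.305%). P4hb, a subunit of the prolyl hydroxylase that stabilises the helix, had 947.2, 1189, 1456 and 1380 CPM. P4ha2, a catalytic subunit of that enzyme, had 14.0 to 22.3 CPM in tumours 1, 5 and 10 but 0.912 CPM in tumour 9. Over the 13 expressed genes of prolyl and lysyl modification, the median deviation was 0.12, 0.09, -0.01 and -0.07, and over the 12 genes of folding and export 0.10, -0.01, 0.09 and -0.20. These are medians over genes that went both ways, and single genes varied more, with an SD over tumours of 2.12 (log2 CPM) for P4ha2, the largest of its list. Bmp1, which cuts the C-propeptide of fibrillar procollagen, had 22.8, 49.5, 49.6 and 20.2 CPM. Adamts2, which cuts the N-propeptide, had 9.28, 5.09, 12.8 and 2.62 CPM.

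Of the crosslinking enzymes, Loxl2 had 28.4, 26.2, 16.2 and 6.24 CPM and Loxl1 had 1.92, 1.66, 3.87 and 0.416, both lowest in tumour 10, while Loxl3 was highest there with 20.8, 19.7, 38.2 and 42.6 CPM. Proteins that regulate fibrils were lowest in tumour 10 for 7 of 8 expressed genes, against 32.4% of all expressed genes. Dcn, the proteoglycan decorin, had 30.4, 13.8, 61.2 and 6.33 CPM, and Bgn, biglycan, had 46.9, 41.4, 114.4 and 28.7 CPM. Fn1, fibronectin, which hepatocytes also secrete, was the exception with 327.3, 206.9, 387.2 and 489.5 CPM. Among the receptors, Ddr1, a kinase that binds collagen, had 6.97, 14.8, 1.97 and 0.862 CPM, and Itgb1, the common integrin β chain, had 244.3, 287.6, 243.1 and 175.2 CPM. Of the other basement membrane genes, Lamc1, a laminin γ chain, had 116.7, 134.7, 107.8 and 44.7 CPM and Agrn, agrin, had 156.5, 179.2, 121.7 and 22.1 CPM. Lama5, a laminin α chain, went the other way with 82.0, 32.5, 85.1 and 195.7 CPM.

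**Figure D5:**
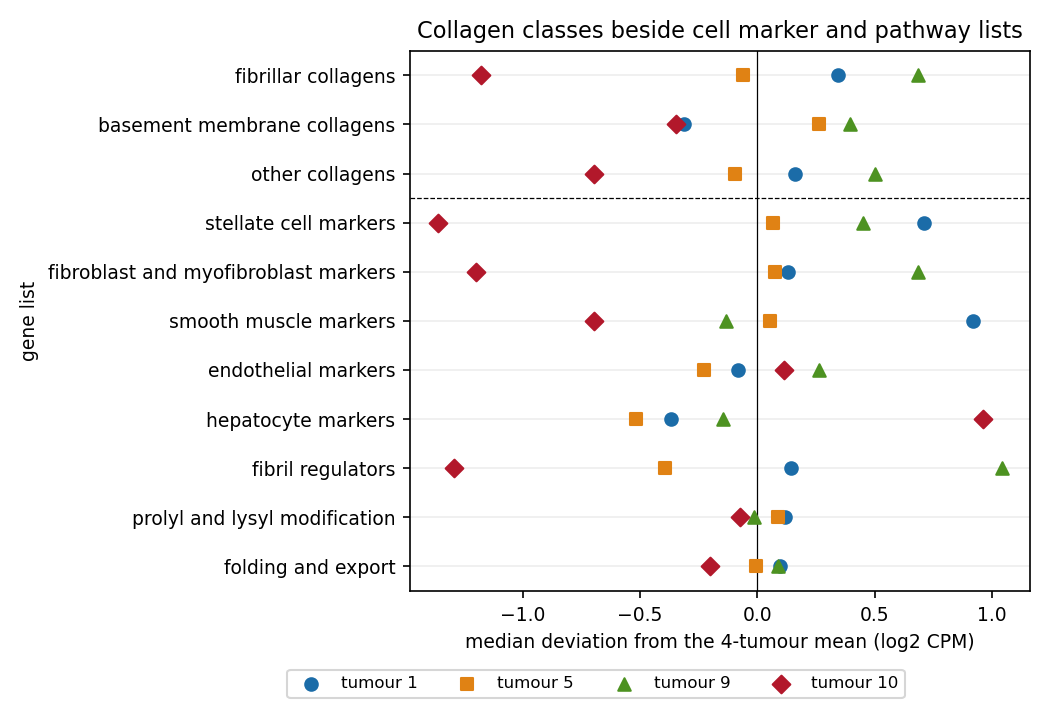
Median deviation from the 4-tumour mean (log2 CPM) over the expressed genes of each collagen class, of 5 marker lists and of 3 pathway lists, with 1 point per tumour. In tumour 10 the fibrillar collagens (-1.18), stellate cell markers (-1.36), fibroblast markers (-1.20) and fibril regulators (-1.29) all lay to the left, and hepatocyte markers (0.96) to the right.

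Markers of cells that could supply collagen were read in the same libraries. In bulk tissue, fewer cells of a type and less RNA per cell cannot be told apart. Stellate cell markers summed to 98.5, 76.7, 79.6 and 37.8 CPM, with 11 of 12 expressed and 9 of these lowest in tumour 10, against 32.4% of all expressed genes. Of its genes, Pdgfrb, the PDGF receptor β, had 16.0, 17.8, 15.8 and 10.0 CPM, and Reln, reelin, had 9.16, 2.62, 2.20 and 0.0892 CPM. Fibroblast and myofibroblast markers summed to 122.2, 96.3, 135.1 and 51.9 CPM, with 11 of 14 expressed and 7 of these lowest in tumour 10, against the same 32.4%. Among them Eln, elastin, had 22.8, 21.9, 29.2 and 5.08 CPM, and Mfap4 was under 3 counts in tumour 10. Smooth muscle markers summed to 38.8, 28.8, 25.6 and 18.1 CPM, and endothelial markers to 160.8, 146.1, 226.6 and 186.4 CPM. Endothelial Pecam1 had 16.0, 18.7, 33.5 and 25.1 CPM, so it was not lowest in tumour 10. Of 13 expressed endothelial markers 3 were lowest there (Lyve1, Stab2, Oit3), the last 2 named after their values were seen. Lyve1, a receptor of sinusoidal and lymphatic endothelium, had 6.53, 2.87, 6.09 and 0.238 CPM.

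Hepatocyte markers summed to 17184, 18958, 23479 and 41839 CPM, and 9 of 12 were highest in tumour 10, as Col18a1 was, against 35.8% of all expressed genes. Alb, albumin, had 4732, 4520, 5594 and 13400 CPM. Tdo2, a liver enzyme of tryptophan breakdown, had 29.0, 2.22, 2.77 and 1594 CPM. Not all markers of this list rose, and 2 of the 12 were lowest in tumour 10. Trf was 1 of them, with 4710, 5468, 5048 and 4112 CPM. Apoa1 had 2072, 3086, 5779 and 3008 CPM and was highest in tumour 9. Cholangiocyte markers summed to 70.9, 123.8, 38.0 and 39.1 CPM, with Krt19 under 3 counts in tumour 10, and mesothelial markers to 7.18, 9.43, 2.55 and 1.52 CPM. Tumour 9 was the highest for 12 of 20 expressed collagens, against 21.6% of expressed genes. In it neutrophil markers summed to 534.8 CPM (11.5 to 23.4 elsewhere), macrophage markers to 946.7 CPM (212.7 to 394.0) and erythroid markers to 779.5 CPM (79.5 to 114.3). Of 9 expressed macrophage markers, 7 were highest in tumour 9 and 2 in tumour 1. Cd5l alone held 430.8 CPM of the macrophage sum of tumour 9, whereas Clec4f had 20.7, 2.99, 0.744 and 0.208 CPM. The part of these cell types in the collagen levels was not tested.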

How the data were processed

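RNA from the 4 tumours was poly-A selected and made into TruSeq libraries, per the labels' protocols. The submitters' processing notes name FastQC 0.11.8 and GRCm38. Aligner, counting program and strand use: not given in the sources used here. Reads of a gene and of one on the other strand cannot be told apart. This touches 10 collagens, 4 of them expressed (Col4a1, Col4a2, Col5a1, Col15a1).

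The authors' deposited tables hold whole-number counts for 33984 RefSeq transcript rows per library. The FPKM and TPM columns, so named per the file headers, were used to recover transcript lengths, whole to within 0.01 bases in 100% of the rows with reads, and for nothing else. Isoforms of a gene share counted reads, so each symbol was represented by its row with the highest mean count.

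Counts were scaled by TMM in edgeR 4.0.16 (R 4.3.3), with factors of 1.102, 1.031, 1.098 and 0.802 for tumours 1, 5, 9 and 10. Log2 CPM used a prior count of 2. Tests of 1 tumour against 3 used the robust quasi-likelihood test of edgeR (two-sided, threshold 0.05), with Benjamini-Hochberg adjustment across the 4 tumours and all genes at once. The SE is the fold change divided by the square root of F. The lone tumour is assumed to vary like the others. Counting error was tested with a Poisson chi-square test. DESeq2 1.42.0, limma 3.58.1 (voom), no filter, sums over rows, 5% technical variation, other scalings, another prior count and leaving out each tumour were tried as alternatives. Scaling by total counts and leaving out Col18a1 were chosen after seeing the data.

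Members, classes and lists were chosen with earlier results of these data known. Of the 178 entries of the 7 pathway and 10 marker lists, all have a row, 8 under an older symbol. From each list the named genes are among the 3 with the highest mean level and the 1 with the largest SD. Collagens were all described, by value or by range, some of the unexpressed ones without being named. Motifs came from the RefSeq windows of GRCm38.p6 and gene extents from RefSeq, while strands and exon overlaps came from GENCODE M21.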

Additional observations from a re-analysis of the deposited data

Results flagged for a closer look

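For 3 collagens, 1 tumour lay far from the other 3 in TMM-scaled CPM by Dixon's gap test. In all, 28 groups of values were examined, and chance flags about 1 in 20 groups. The share of all expressed genes that this test would flag was not computed. Tumour 10 lay above the range of the others for 35.8% of them, so the flags may not be particular to collagens. Col18a1 was 850.9 CPM in tumour 10, the highest, and 370.9 to 429.4 CPM in the others. Col5a3 was 28.7 CPM in tumour 10, against 7.05 to 10.3 CPM. Col12a1 was 12.3 CPM in tumour 10, against 3.83 to 4.46 CPM. All 3 were high in the same library, in which 9 of 12 hepatocyte markers were also highest. The part of hepatocyte content in these levels was not tested.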

How the results depend on the processing

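Of 268 values under alternatives for 57 results, 244 stayed close to their count or moved by less than their SE or the spread between tumours, although small class medians among them changed sign. With no filter on low counts, 31 of 44 collagens varied beyond counting error, as did 15790 of all 19162 genes. DESeq2's Wald test called 8 collagens in tumour 10 where edgeR called none, and the cause was not tested. Per length, collagens took 0.0376%, 0.0354%, 0.0460% and 0.0272% of all genes' level in tumours 1, 5, 9 and 10. Without Col18a1 they took 0.0844%, 0.0794%, 0.114% and 0.0362% of gene counts. Scaling by total counts turned the log2 fold change of Col11a2 in tumour 10 to -0.40 and moved 9 others, such as Col18a1 to 0.64. Leaving out a tumour left the fibrillar median in tumour 10 between -1.17 and -0.92. The fibrillar median in tumour 5 (-0.39 to 0.22) changed sign without tumour 1 or 9, and the median of other collagens in tumour 1 (-0.27 to 0.42) without tumour 5 or 10 and in tumour 5 (-0.32 to 0.18) without tumour 9. With no filter, the type IV median became 0.03 in tumour 1 and -0.10 in tumour 5, and that of other collagens -0.16 in tumour 1. No paired analysis was possible because there is 1 group. In edgeR's adjusted test of tumour 10, 411 of 12867 genes passed without tumour 9 and 123 of 19162 with no filter. None was a collagen, of 19 and 44 tested, and these shares are too low for that to say anything about collagens. The low reads of the 24 unexpressed collagens allow no order among them.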
